A study of Mus musculus with 6 samples.

Results

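The 75 genes described here are the protein-coding mouse genes named Vps, Chmp or Snx followed by a number, 35 Vps, 10 Chmp and 30 Snx genes, chosen by symbol alone among the 56305 genes of the table. They were measured by RNA-Seq in the livers of 3 WT and 3 Vps15LKO mice, 1 library per liver. All 6 were males of 5 weeks, fed ad libitum under a light and dark cycle and sampled at ZT6, 6 h after lights on. Vps15LKO mice (AlbCre+;Vps15f/f) carry a floxed Vps15 that Cre, driven by the albumin promoter, recombines in hepatocytes. Recombination in other cells of the liver was not examined here. By the study's account the recombined locus still gives a truncated protein. The WT livers were the controls without the deletion, and nothing in the labels ties a replicate number to a litter.

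Vps genes are named after yeast mutants that failed in sorting proteins to the vacuole, the counterpart of the lysosome. Vps15 and the kinase Vps34 form class 3 PI3K, which makes the lipid PI3P on endosomes, and the PX domain of most sorting nexins (Snx) binds this lipid. ESCRT complexes, to which the Chmp proteins belong, bend and cut endosomal membrane inward and carry ubiquitinated receptors toward the lysosome. HOPS and CORVET tether endosomes and lysosomes, while retromer, retriever and many sorting nexins return cargo from endosomes to the Golgi or the cell surface. In the hepatocyte these routes handle the receptors for lipoproteins, asialoglycoproteins and growth factors. The genes for Vps15 and Vps34 themselves, Pik3r4 and Pik3c3, do not carry a Vps symbol and are therefore not among the 75.

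The reads counted on genes numbered between 16137093 and 18110223 per library, and the values are normalized counts, that is reads divided by 1 size factor per library. One read was worth 1.25 to 1.35 normalized counts in WT but 0.707 to 0.81 in Vps15LKO libraries. If every library was instead scaled to the same total of reads (total-read scaling), the log2 fold changes of the tested genes shifted up by a median of 0.72. Under the size factors a transcript with an equal share of both libraries therefore appears lower in Vps15LKO liver. Hepatocyte markers were present in all libraries and summed to 2622230 to 3022500 normalized counts in WT livers, against 765980 to 1164970 in Vps15LKO livers, with 7 of 8 called lower. Most of these sums was Alb, at 2030860 to 2350420 in WT and 620735 to 968935 in Vps15LKO livers. Alb was the marker not called (log2 fold change −1.48, SE 1.38, limma adjusted p = 0.366). Whole liver was sequenced, so fewer cells of a type and less RNA per cell cannot be told apart. Pik3r4, the deleted gene, was read at normalized counts of 508, 573 and 459.7 across the WT livers and 341, 362 and 355 across the Vps15LKO livers, a fall in which the groups did not overlap (log2 fold change −0.54, SE 0.11, limma adjusted p = 0.00207), while its log2 fold change was 0.19 and not called under total-read scaling. Counts over the whole gene can include a recombined transcript and the transcript of cells without recombination, so this value is only a partial check of the deletion.

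Of the 75 genes, 74 reached at least 20 normalized counts in at least 3 livers and were tested with limma, with p-values adjusted over all 15430 tested genes. Calls required both an adjusted p under 0.05 and a difference of 1.2-fold or more. In all, 46 of the 74 (62.2%) were called, against 66.5% of all tested genes. Of these, 22 fell and 24 rose in Vps15LKO liver. The 24 include Snx20 and Vps37d, which passed the filter only through the Vps15LKO livers. Among all tested genes 33.0% were called lower and 33.5% higher, so the share called among the 74 lay near that of all genes. For 49 of the 74 the values of the 2 genotypes did not overlap, against 73.2% of all tested genes. The median log2 fold change was 0.04, against −0.02 for all tested genes.

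Most of the differences were small. The log2 fold change lay within 0.5 of no change for 49 of them (66.2%) and for 6584 of all tested genes (42.7%), while it reached 1 in either direction for 5 (6.76%) and for 5218 of all tested genes (33.8%). Snx20 and Vps37d, which passed the filter only through the Vps15LKO livers, are among the 5. Among the 6410 tested genes with a mean between 197 and 1105 normalized counts, the 10th to 90th percentile of the 74 genes, 52.6% lay within 0.5, 22.5% reached 1 and 64.8% were called. These shares are descriptions, since genes are not independent replicates, and they were computed with the results of these libraries already known.

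**Figure D1:**
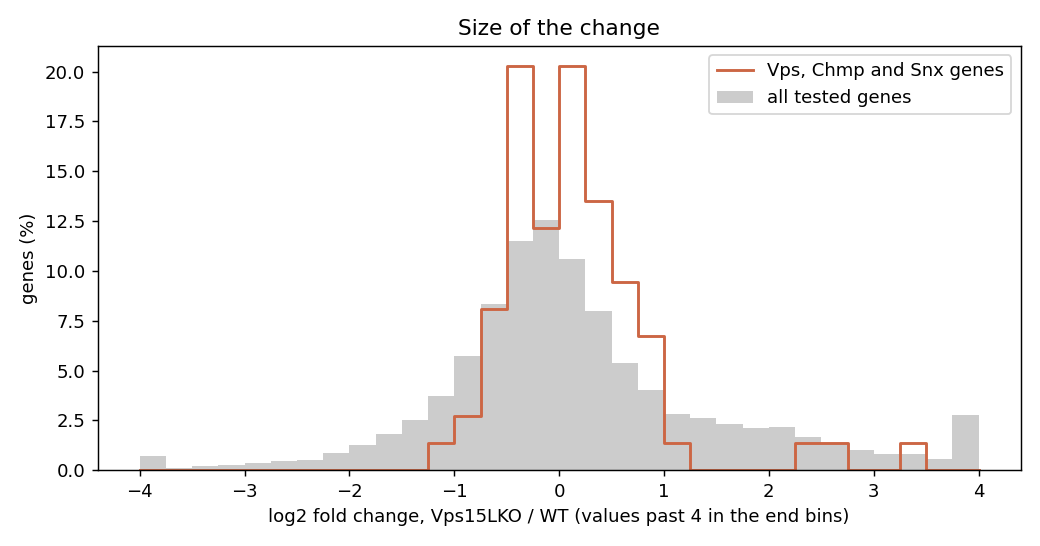
Distribution of the log2 fold change (x axis, Vps15LKO over WT, on log2 of normalized count + 1, with values past 4 in the end bins) as the percent of genes in each bin (y axis). The red line stands for the 74 tested Vps, Chmp and Snx genes and the grey bars for all 15430 tested genes. The red line is narrow around 0, with 66.2% of these genes within 0.5, and only 5 of them reach 1 in either direction. Snx20 and Vps37d, among the 5, passed the filter only through the Vps15LKO livers.

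The direction of a call depended on the scaling. With total-read scaling 63 of the 74 genes were called higher and 1 lower, against 66.7% higher and 11.1% lower among all tested genes, and the median log2 fold change was 0.77, against 0.70 for all tested genes. All 24 genes that rose under the size factors were also called higher under total-read scaling. Of the 22 that fell, 12 were then called higher, 9 were not called and Vps37a alone was still called lower. The split was 11 lower and 28 higher with upper-quartile scaling, and 15 lower and 27 higher with quantile normalization. Calls lost with TMM scaling were those of Snx15, Snx27, Vps33a, Chmp2a and Vps28. Upper-quartile scaling ended the calls of these and of Snx9, Vps53, Snx13, Vps26b, Chmp7 and Snx21, and quantile normalization those of Snx9, Vps13d, Snx11, Snx27, Vps33a, Chmp2a, Chmp7, Snx22, Vps25 and Vps28. In every scaling tried, 23 genes were called higher and 1 lower. Fold changes below are those under the size factors unless another scaling is named, and counts within each group of genes are to be read against the shares of all tested genes given here, 33.0% lower and 33.5% higher under the size factors.

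Leaving out 1 liver ended the call of 13 of the 46 genes, 5 higher and 8 lower, and left that of the other 33 in place. The 5 higher ones, Chmp1b, Snx11, Snx30, Snx7 and Vps35l, then had log2 fold changes of 0.20 to 0.53, and the 8 lower ones, Chmp2a, Chmp7, Snx13, Snx15, Snx21, Snx27, Vps28 and Vps33a, had −0.50 to −0.22 (limma adjusted p between 0.0458 and 0.167). Without Vps15LKO replicate 1 the calls of all of these but Snx13 were lost. Without Vps15LKO replicate 3 those of Chmp1b, Chmp7, Snx11, Snx13, Snx15, Snx21, Snx27, Snx7, Vps33a and Vps35l were lost, and without Vps15LKO replicate 2 those of Chmp1b, Chmp2a, Snx15, Vps28 and Vps33a. Among the WT livers, leaving out replicate 1 ended the calls of Chmp1b, Chmp2a, Snx11, Snx15, Snx21, Snx30 and Vps28, replicate 2 those of Chmp2a, Snx11, Snx13, Snx21, Snx27, Vps33a and Vps35l, and replicate 3 those of Chmp7, Snx15, Snx27, Snx30, Vps33a and Vps35l. In the other direction Chmp6 (0.47) was called higher without WT replicate 1, Snx24 (0.40 and 0.41) without WT replicate 1 or Vps15LKO replicate 3, and Snx25 (−0.38) lower without WT replicate 3. These calls are therefore the least firm of those given below.

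**Figure D2:**
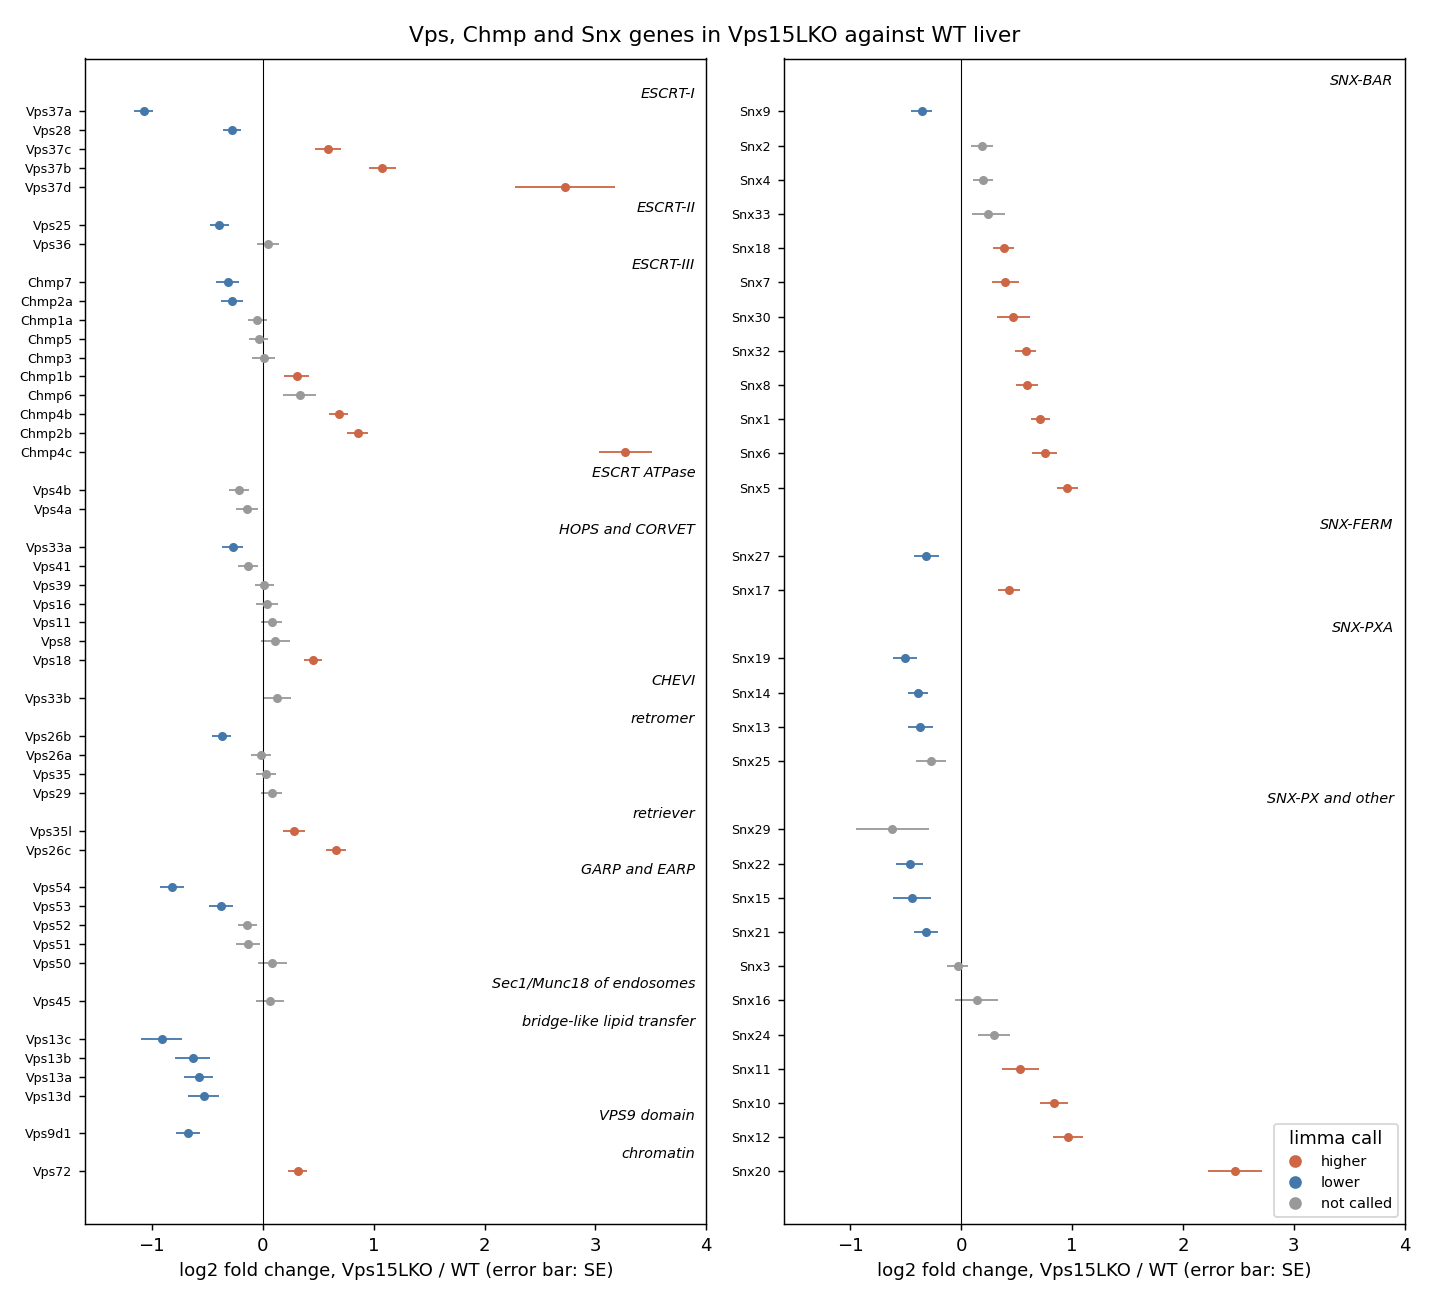
Log2 fold change (x axis, Vps15LKO over WT, log2 of normalized count + 1) of each of the 74 tested genes (y axis), ordered by role in the endosomal system. Points are limma estimates from 3 WT and 3 Vps15LKO livers, error bars are their SE, and the colour gives the call. Chmp4c, Vps37d and Snx20 stand to the far right and Vps37a to the far left, and most genes lie within 0.5 of 0.

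ESCRT-I, the complex that takes ubiquitinated cargo from ESCRT-0 showed opposite differences between genes for the same subunit. Its Vps37 subunit is encoded by 4 genes, of which 1 protein enters each complex together with Tsg101 and Vps28. Vps37a (ENSMUSG00000031600, chr8:40511783-40551134, + strand, build GRCm38) was read at 945, 958 and 1050.1 normalized counts without and 478, 464 and 459 with the Vps15 deletion. The highest Vps15LKO liver was therefore far below the lowest WT liver (log2 fold change −1.07, SE 0.086, limma adjusted p = 1.4e-05), and it was the only gene of the 74 that was called lower under the size factors and in all 21 alternative analyses (log2 fold change −0.35 with total-read scaling). Vps37b (ENSMUSG00000066278, chr5:124004641-124032270, − strand) went the other way, from 366, 311 and 387 in WT to 819, 765 and 663 in Vps15LKO livers, again without overlap (log2 fold change 1.08, SE 0.12, limma adjusted p = 8.28e-05). Vps37c was read at 385, 357 and 454 normalized counts in WT against 619, 548 and 632 in Vps15LKO liver, a smaller rise (log2 fold change 0.59, SE 0.12, limma adjusted p = 0.00197). Vps37d was scarce, with normalized counts of 10.6, 2.50 and 6.74 across the WT livers and 44.3, 35.7 and 53.8 across the Vps15LKO livers, and rose by 2.73 on the log2 scale (SE 0.45, limma adjusted p = 0.000715), a value that was 1.73 with a pseudocount of 10 and 1.56 with quantile normalization. It passed the filter only through the Vps15LKO livers, so a difference was built into its being tested.

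Divided by exon length, Vps37a made up 35.7% ± 2.0 (SD, n = 3) of the summed Vps37 level in WT and 12.4% ± 0.37 in Vps15LKO livers. The share of Vps37b went from 29.3% ± 1.2 to 45.3% ± 3.7, that of Vps37c from 33.9% ± 1.2 to 37.4% ± 2.6, and that of Vps37d from 0.98% ± 0.60 to 4.9% ± 1.0. Vps37a, Vps37b and Vps37c were thus at similar levels in WT liver, and in Vps15LKO liver Vps37a lay well below the other two. The log2 ratio of Vps37b to Vps37a, on which the size factors have next to no bearing, was −1.37, −1.62 and −1.44 in the WT libraries and 0.77, 0.72 and 0.53 in the Vps15LKO libraries. The difference of 2.15 had the smallest p that 3 against 3 livers allow (0.1, exact two-sided permutation test; adjusted over the 27 pairs tested, 0.142). Part of the Vps37b exons, 32.9%, lie across exons of Hip1r on the opposite strand, whose log2 fold change was 0.68, and 16.0% across Gm37939 (0.89), and the strand setting of the counting was not given in the sources used here. Vps37a shares only 40 exonic bases, 0.627%, with Mtmr7 on the opposite strand, whose log2 fold change was −1.11. The remaining subunit with a Vps name, Vps28, fell by 0.28 on the log2 scale and rose under total-read scaling.

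**Figure D3:**
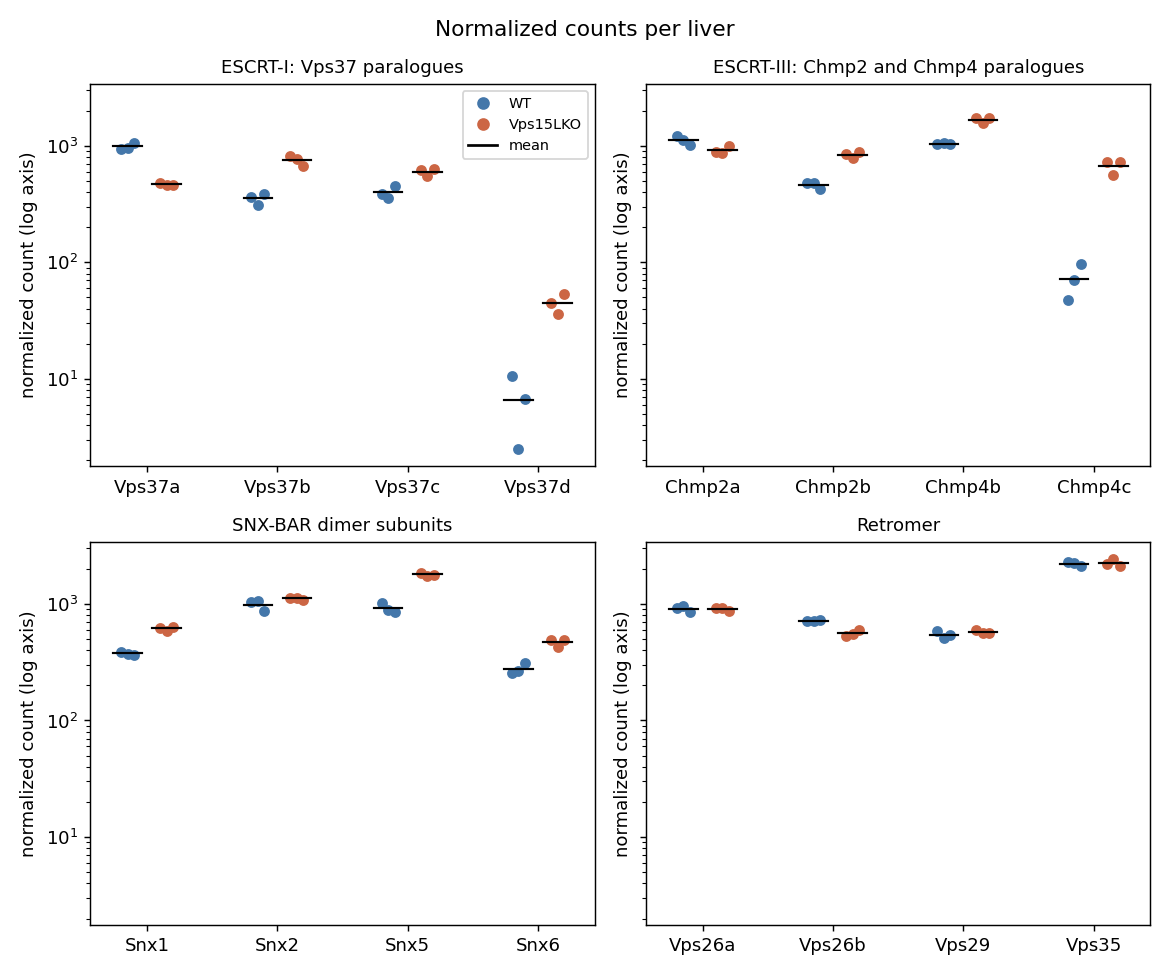
Normalized counts (y axis, log scale) of related ESCRT and sorting nexin genes in each liver, with WT and Vps15LKO livers side by side on the x axis. Each point is 1 liver and each bar the mean of 3. Vps37a drops below every WT liver while Vps37b, Vps37c, Vps37d and Chmp4c lie above every WT liver in all 3 Vps15LKO livers, and the retromer genes Vps26a, Vps29 and Vps35 overlap.

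In ESCRT-II, which bridges ESCRT-I to the filaments, Vps25 fell by 0.39 and Vps36 had a log2 fold change of 0.047 and was not called. Vps25 shares 67.2% of its exons with Ramp2 on the same strand, so its reads may be split between them, and it was called higher under total-read scaling.

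ESCRT-III proteins polymerise into the filaments that cut the membrane neck. Among the 10 Chmp genes 4 rose, 2 fell and 4 were not called under the size factors, with a median log2 fold change of 0.16. Chmp4c (ENSMUSG00000027536, chr3:10366907-10428856, + strand), a Chmp4 subunit known for the abscission checkpoint at the end of cell division, had the largest log2 fold change of all 74 genes. It was read at 47.7, 69.9 and 95.7 normalized counts without and 729, 565 and 726 with the Vps15 deletion, 71.1 ± 24.0 against 673 ± 93.9 (mean ± SD, n = 3 each), and no Vps15LKO liver came near the WT range (log2 fold change 3.27, SE 0.24, limma adjusted p = 8.61e-06). Chmp4b, the main Chmp4 subunit of the filament, was read at 1034, 1055 and 1024 normalized counts in WT against 1711, 1567 and 1733 in Vps15LKO liver, also without overlap (log2 fold change 0.68, SE 0.084, limma adjusted p = 0.000131). Proliferation genes summed to 79.9 to 305 normalized counts in WT livers, against 2285 to 2375 in Vps15LKO livers (6 of 6 called higher, with Ccnb1 and Bub1 at 0 in WT replicate 2). Of these 6 only Mki67 would have passed the filter on the WT livers alone, and Bub1 and Aurkb were under it in every WT liver. The part of proliferation in the rise of Chmp4c was not tested. Per kilobase of exon Chmp4b was still the more abundant, at 824 normalized counts against 66.7 for Chmp4c in Vps15LKO livers, from 512 against 7.05 in WT. The log2 ratio of Chmp4c to Chmp4b differed by 2.59 between the genotypes.

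Chmp4c lies end to end with Snx16, a sorting nexin of the opposite strand with which it shares 330 exonic bases. The log2 fold change of Snx16 was 0.14 (not called), so the neighbour did not show the Chmp4c difference.

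Chmp2b, a late-acting filament subunit, was read at normalized counts of 480.0, 481 and 427 across the WT livers and 849, 779 and 886 across the Vps15LKO livers and rose by 0.86 on the log2 scale (SE 0.096, limma adjusted p = 8.29e-05). Its paralogue Chmp2a was read at 1205, 1115 and 1022 normalized counts without and 887, 867 and 997 with the Vps15 deletion. The groups of Chmp2a did not overlap but lay close (log2 fold change −0.28, SE 0.10, limma adjusted p = 0.0347), its call stood in 9 of 21 alternatives, and under total-read scaling it was called higher. The genotypes differed in the log2 ratio of Chmp2b to Chmp2a by 1.13. Chmp7, which recruits ESCRT-III to the nuclear envelope, fell by 0.32 under the size factors and was called higher under total-read scaling, and Chmp1b, which helps to bring in the ATPase, rose by 0.31 on the log2 scale. Of the Chmp1b exons, 24.0% lie across the antisense gene AC140336.1, which had a log2 fold change of 0.30. Chmp6, the subunit that starts the filament from ESCRT-II, had a log2 fold change of 0.33 that did not pass (limma adjusted p = 0.0726). The values of Chmp1a (−0.048), Chmp3 (0.0084) and Chmp5 (−0.035) lay near 0.

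Vps4a and Vps4b encode the ATPases that take ESCRT-III filaments apart. Vps4a was read at 387, 427 and 462 normalized counts in WT against 376, 382 and 395 in Vps15LKO liver and Vps4b at normalized counts of 1102, 1203 and 1066 across the WT livers and 987, 974 and 942 across the Vps15LKO livers. The log2 fold changes of −0.14 and −0.21 did not pass (limma adjusted p = 0.232 and 0.0535), and the ratio of the 2 genes overlapped between genotypes. Of the 16 other ESCRT subunits and partners tested, 6 rose, 3 fell and the median log2 fold change was −0.03 (15 were called higher under total-read scaling). Mvb12b, another ESCRT-I subunit, rose from 88.8, 81.2 and 64.7 to 280.3, 320.1 and 359 normalized counts (log2 fold change 2.02), and Ptpn23, an ESCRT-III adaptor, rose by 1.49 on the log2 scale.

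The HOPS and CORVET tethers share a core of Vps11, Vps16, Vps18 and Vps33a. Only Vps18 rose, from 395, 409.7 and 389.6 in WT to 532, 545 and 560.2 normalized counts in Vps15LKO livers (log2 fold change 0.45, SE 0.085, limma adjusted p = 0.00149). Vps33a, the SNARE-binding subunit, was read at 648, 757 and 712 normalized counts without and 598, 583 and 569 with the Vps15 deletion, called lower under the size factors (log2 fold change −0.27) and higher under total-read scaling (0.45). Vps11 (0.081) and Vps16 (0.043) were not called, nor were Vps39 (0.016) and Vps41 (−0.13), which are particular to HOPS, or Vps8 (0.11) of CORVET. For Tgfbrap1, the CORVET counterpart of Vps39, the log2 ratio to Vps39 was lower by 0.73, with no overlap of the genotypes. Vps33b, the Vps33 protein of the CHEVI complex whose human gene is mutated in a cholestatic liver syndrome, had a log2 fold change of 0.13 and was not called. Of the 7 partners tested, Arl8a, a small GTPase that recruits HOPS to lysosomes, rose by 1.29 and Plekhm2, which links lysosomes to kinesin, rose by 1.17 on the log2 scale. One other partner fell and 4 were not called.

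The cargo-binding trimer of retromer was close to level between the genotypes. Vps35, its scaffold, was read at 2277, 2232 and 2106 normalized counts in WT against 2222, 2416 and 2134 in Vps15LKO liver, and Vps26a at normalized counts of 929, 961 and 848 across the WT livers and 916, 929 and 866 across the Vps15LKO livers. Vps29 was read at 586, 508 and 538 normalized counts without and 593, 567 and 562 with the Vps15 deletion. The groups overlapped for all 3, and for none of them did the test pass (log2 fold changes 0.033, −0.013 and 0.079). All 3 were called higher under total-read scaling, at 0.76, 0.71 and 0.80, near the shift of all genes. Vps26b, the alternative arrestin-like subunit, was read at 717, 716 and 725 normalized counts in WT against 531, 547 and 596 in Vps15LKO liver and fell without overlap (log2 fold change −0.37, SE 0.086, limma adjusted p = 0.00499), but was called higher under total-read scaling while Vps26a was not called under the size factors. The log2 ratio of Vps26b to Vps26a, free of the size factors apart from the added 1, was lower by 0.36 without overlap. In retriever, the retromer-like complex that recycles the LDL receptor family in hepatocytes, both genes with a Vps symbol rose. Vps26c was read at normalized counts of 385, 398 and 355 across the WT livers and 597, 617 and 585 across the Vps15LKO livers (log2 fold change 0.66, SE 0.090, limma adjusted p = 0.000246) and Vps35l rose by 0.28 on the log2 scale. Vps29 is shared by both complexes. Of the 19 further retromer, WASH and retriever partners tested, 3 rose, 3 fell and 13 were not called, and Ankrd50, a partner of retromer and WASH, had the largest log2 fold change (1.01).

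The tethers GARP and EARP, which receive endosomal vesicles at the Golgi and at recycling endosomes, share Vps51, Vps52 and Vps53 and differ in their last subunit, Vps54 in GARP and Vps50 in EARP. Vps54 was read at 883, 932 and 825 normalized counts without and 541, 523 and 438 with the Vps15 deletion, and every Vps15LKO liver lay below every WT liver (log2 fold change −0.82, SE 0.11, limma adjusted p = 0.000205), although it was not called under total-read scaling (−0.091). Vps50 had a log2 fold change of 0.086 and was not called, and the log2 ratio of Vps50 to Vps54 was higher by 0.90 without overlap. Vps53 fell by 0.37 and was called higher under total-read scaling, while Vps51 (−0.13) and Vps52 (−0.14) were not called. Vps51 shares 11.8% of its exons with Tm7sf2 on the same strand, which had a log2 fold change of −2.46.

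All 4 Vps13 genes, which encode very long bridges that pass lipids between membranes, fell under the size factors, while none was called under total-read scaling, where their log2 fold changes lay between −0.18 and 0.19, and Vps13d also lost its call with quantile normalization (−0.19, limma adjusted p = 0.24). Vps13c, the bridge between the endoplasmic reticulum and late endosomes, was read at 525, 753 and 644 normalized counts in WT against 368, 399 and 261 in Vps15LKO liver (log2 fold change −0.91, SE 0.19, limma adjusted p = 0.00232). Vps13b, a Golgi protein, was read at normalized counts of 874, 1205 and 1189 across the WT livers and 804, 711 and 588 across the Vps15LKO livers (log2 fold change −0.63, SE 0.16, limma adjusted p = 0.00704). Vps13a, found at contacts with mitochondria and lipid droplets, was read at 270.5, 321 and 279 normalized counts without and 204, 214 and 166 with the Vps15 deletion (log2 fold change −0.58, SE 0.13, limma adjusted p = 0.00461). Vps13d, a mitochondrial and peroxisomal contact protein, was read at 1683, 2299.6 and 1763 normalized counts in WT against 1419, 1383 and 1148 in Vps15LKO liver (log2 fold change −0.53, SE 0.14, limma adjusted p = 0.0091). The genotypes did not overlap for any of the 4, but the WT livers themselves spread widely, and WT replicate 1 had the lowest WT value of each gene.

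Among the remaining Vps genes, Vps9d1, which carries the domain of Rab5 exchange factors, was read at normalized counts of 471, 418 and 406 across the WT livers and 257, 297 and 257 across the Vps15LKO livers and fell by 0.67 on the log2 scale (SE 0.11, limma adjusted p = 0.000648), with no call under total-read scaling. Vps45, a regulator of endosomal SNAREs, was not called (0.066). Vps72, which rose by 0.31 on the log2 scale, belongs to chromatin remodelling complexes and shares only the name with the sorting genes.

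The sorting nexins with a membrane-bending BAR domain form the coats of recycling tubules, and 8 of the 12 rose, 1 fell and 3 were not called, with a median log2 fold change of 0.44, and the 8 were also called higher under every scaling tried (all tested genes, 33.5% higher and 33.0% lower under the size factors and 66.7% higher under total-read scaling). Snx5 (ENSMUSG00000027423, chr2:144250123-144270906, − strand) was read at 1012, 896 and 860.0 normalized counts without and 1859, 1725 and 1784 with the Vps15 deletion, with the groups far apart (log2 fold change 0.96, SE 0.093, limma adjusted p = 3.9e-05). Its close relative Snx6 was read at 255, 267 and 313 normalized counts in WT against 486, 431 and 489 in Vps15LKO liver (log2 fold change 0.75, SE 0.11, limma adjusted p = 0.00043), and the ratio of Snx6 to Snx5 overlapped between genotypes. Each pairs with Snx1 or Snx2. Snx1 was read at normalized counts of 389, 372 and 368 across the WT livers and 625, 591 and 640.1 across the Vps15LKO livers (log2 fold change 0.72, SE 0.087, limma adjusted p = 0.000128), while Snx2 was read at 1044, 1050.5 and 868 normalized counts without and 1135, 1135 and 1086 with the Vps15 deletion and was not called (log2 fold change 0.19). Relative to Snx1, Snx2 was lower by 0.53 on the log2 scale in Vps15LKO livers, without overlap. Snx8 (0.59), Snx32 (0.58), Snx30 (0.47), Snx7 (0.40) and Snx18 (0.39) rose as well. Part of the Snx32 exons, 13.2%, lie across Cfl1 on the opposite strand, which had a log2 fold change of 0.97. Snx4 (0.20) was not called.

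Snx9, Snx18 and Snx33 form a separate branch with an SH3 domain that acts with dynamin in endocytosis. Snx9 fell by 0.36 under the size factors and was called higher under total-read scaling, whereas Snx18 rose under both and Snx33 was not called (0.24). Per exon length Snx9 held 68.1% of the summed level of the 3 genes in WT and 57.1% in Vps15LKO livers, and Snx18 went from 18.3% to 25.6%. The log2 ratio of Snx18 to Snx9 was higher by 0.74, with no overlap.

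Of the sorting nexins with a FERM domain, Snx17, the adaptor that hands the LDL receptor family to retriever, rose by 0.43 on the log2 scale. Snx27, its counterpart for retromer, fell by 0.31 and was called higher under total-read scaling. Relative to Snx17, Snx27 was lower by 0.74 on the log2 scale, and the genotypes did not overlap. Snx31, the third of them, was the one gene outside the filter. No WT library held a read of it, and the Vps15LKO libraries held 7, 5 and 12 reads. Their mean of 5.96 normalized counts was 1.52-fold the level of 3 reads per library (3.92) that a WT count of 0 allows. This ratio covers the counting error of the WT libraries only, and the lowest Vps15LKO library, at 4.05, lay close to that level.

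Among the sorting nexins with a PXA domain before the PX domain, Snx19, Snx14 and Snx13 fell by 0.51, 0.39 and 0.37 on the log2 scale. Under total-read scaling Snx13 and Snx14 were called higher and Snx19 was not called. Snx25 (−0.27) was not called under the size factors.

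In the last group of 11 sorting nexins, mostly made of little more than a PX domain, 4 rose, 3 fell and 4 were not called under the size factors. Snx20 (ENSMUSG00000031662, chr8:88626563-88636128, − strand), which binds the selectin ligand PSGL-1 in leukocytes, was read at 17.2, 13.7 and 25.6 normalized counts in WT against 106, 108 and 104 in Vps15LKO liver (log2 fold change 2.47, SE 0.24, limma adjusted p = 4.07e-05), and it passed the filter only through the Vps15LKO livers. Lymphocyte markers summed to 209.5 to 334 normalized counts in WT livers, against 884 to 1023 in Vps15LKO livers, with 5 of 6 tested called higher. Of these 5 only Ptprc would have passed the filter on the WT livers alone. The part of lymphocytes in the rise of Snx20 was not tested. Snx21, its only close relative, fell by 0.32 under the size factors and was called higher under total-read scaling, and the log2 ratio of Snx21 to Snx20 was lower by 2.79. Snx12 was read at normalized counts of 151, 179.9 and 149.6 across the WT livers and 336, 269 and 335 across the Vps15LKO livers (log2 fold change 0.96, SE 0.14, limma adjusted p = 0.000291). Its paralogue Snx3, the retromer adaptor for Wntless, had the highest level per kilobase of the 75 genes in WT liver (1355 normalized counts per kb) and was not called (−0.031). Snx10, needed by bone-resorbing osteoclasts, was read at 329, 443 and 429 normalized counts without and 724, 681 and 724 with the Vps15 deletion (log2 fold change 0.84, SE 0.13, limma adjusted p = 0.000417), and its relative Snx11 rose by 0.53 on the log2 scale, with 16.2% of its exons across the antisense gene Gm11537 (0.73). Snx22 fell by 0.47 and Snx15 by 0.44, the latter with overlapping groups and a call that stood in 8 of 21 alternatives. Of the Snx22 exons, 28.5% lie across Ppib on the opposite strand (log2 fold change −0.43). Snx24 (0.30) and Snx29 (−0.62) were not called. For Snx29 WT replicate 3 stood apart at 158 normalized counts, with 63.6 and 68.7 in the other WT livers and 50.2 to 64.8 in Vps15LKO livers.

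In 28 pairs of paralogues or alternative subunits written down for the 75 genes, 27 had both genes tested. For 19 of them the log2 ratio did not overlap between the genotypes, each with the smallest p that the design allows (0.1, exact two-sided permutation test, 0.142 after adjustment over the 27), so none could pass at 0.05. Among single tested genes 73.2% were without overlap, so the count of pairs sets nothing apart. In 6 the mean log2 ratio differed by at least 1. These were Vps37d to Vps37a (3.80), Snx21 to Snx20 (−2.79), Chmp4c to Chmp4b (2.59), Vps37b to Vps37a (2.15), Vps37c to Vps37a (1.67) and Chmp2b to Chmp2a (1.13). The ratios with Vps37d and Snx20 are descriptions only, since both genes passed the filter through the Vps15LKO livers alone. Snx12 to Snx3 came next at 0.99. The 8 pairs with overlap were Vps4b to Vps4a, Vps13d to Vps13b, Vps8 to Vps41, Snx6 to Snx5, Snx32 to Snx6, Snx30 to Snx7, Snx25 to Snx13 and Snx19 to Snx14.

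**Figure D4:**
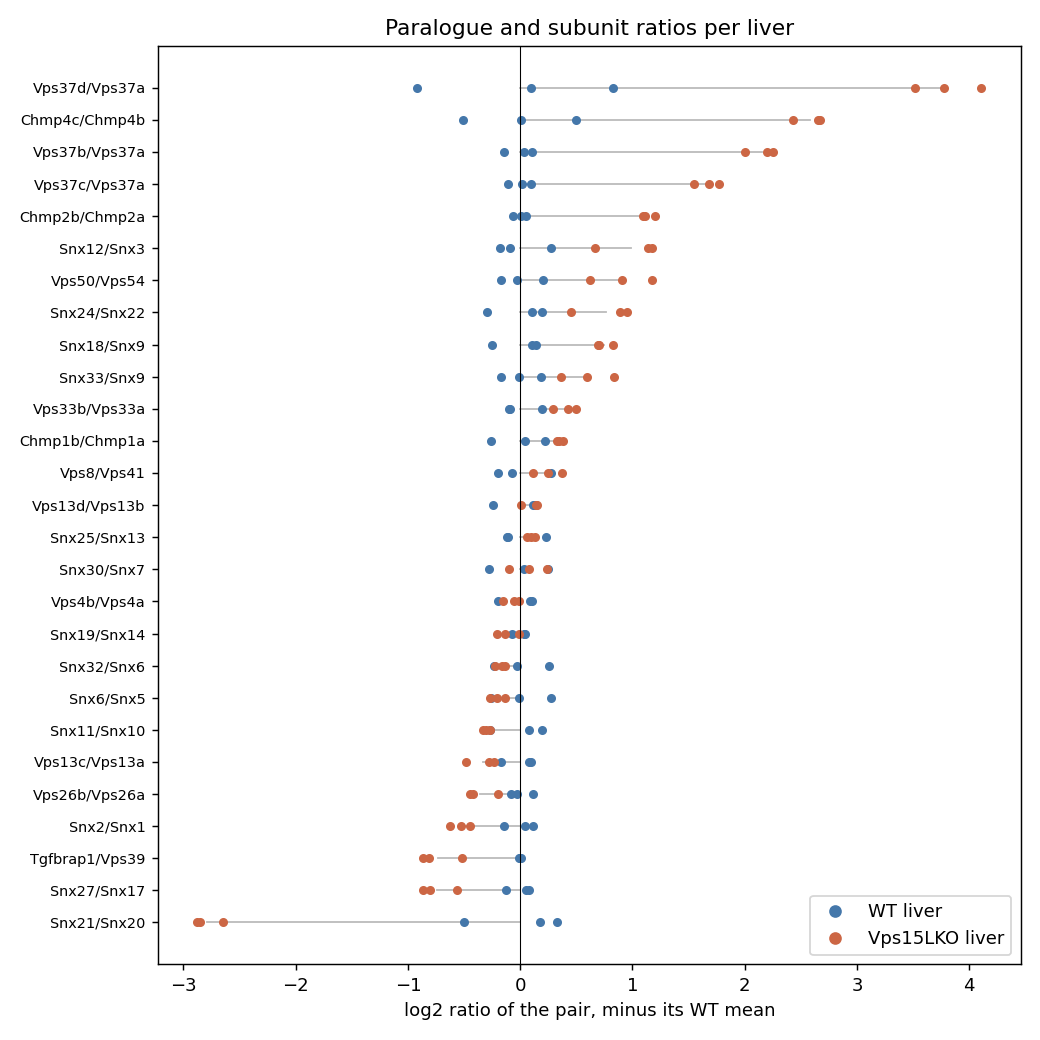
Log2 ratio of normalized counts within each library, minus the WT mean of the pair (x axis), for the pairs of paralogues or alternative subunits (y axis). Each point is 1 liver, 3 WT and 3 Vps15LKO. For Vps37b over Vps37a the WT points lie around 0 and the Vps15LKO points lie to the right of all of them. For 8 of the 27 pairs the genotypes overlap.

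The promoters of some of these genes carry the palindrome GTCACGTGAC, the CLEAR motif bound by TFEB and related regulators of lysosomal genes, which holds within it the E-box CACGTG that circadian factors also bind. RefSeq windows (GRCm38.p6) from 250 bases before to 50 after the start were at hand for 49 of the 75 genes. The E-box was found in 7 of the 49 (14.3%), in 11.4% of the 10804 tested genes with a window and in 8.09% of all genes with one. The longer palindrome was found in 3 of the 49 (6.12%), in 0.759% of tested genes and in 0.370% of all genes. Both strands read alike, since both motifs are palindromes. The sites of the longer motif are shown because they fall in core HOPS, CORVET and retromer genes, and 3 E-box sites because they fall in BAR sorting nexins that rose. Each line gives 30 bases on the strand of the gene, with the motif in capitals.
Vps16 (chr2:130424290-130424319, 18 bases upstream): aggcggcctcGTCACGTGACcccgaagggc
Vps26a (chr10:62486732-62486761, 151 bases upstream): atggcctacgGTCACGTGACgggcggcggg
Vps26a, second start (chr10:62486970-62486999, 182 bases upstream): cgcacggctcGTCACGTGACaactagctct
Vps33a (chr5:123573010-123573039, 12 bases upstream): tgaacgtcccGTCACGTGACgcaggcggcg
Snx5 (chr2:144270605-144270634, 50 bases upstream): gcactgggggagCACGTGgcgtgccgctcg
Snx8 (chr5:140389391-140389420): cccggccgcggcCACGTGgttggggcgtgg
Snx18 (chr13:113618733-113618762, 186 bases upstream): cctcccacccacCACGTGgtcactcaagcg
Vps50 was the seventh gene with an E-box. Of the 3 genes with the longer palindrome, Vps16 and Vps26a were not called and Vps33a was called lower, and none rose under the size factors. An E-box stood in 3 of the 17 genes with a window that rose and in 1 of the 13 that fell. A match of letters is not a measured binding site.

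Genes of the same pathway outside the symbol rule were read from lists. Among 18 effectors and enzymes of PI3P turnover 7 fell and 2 rose, with a median log2 fold change of −0.14, against 33.0% lower and 33.5% higher among all tested genes. Under total-read scaling 1 was called lower and 13 higher, against 11.1% and 66.7%. The share that fell under the size factors lay near that of all tested genes, and the share that rose lay below it. Mtmr4, a phosphatase that removes PI3P on endosomes, fell by 1.03 on the log2 scale, and Zfyve16, a PI3P-binding endosomal adaptor, rose by 1.06. Of the 7 genes of class 3 PI3K tested, Pik3r4 included, 5 fell and none rose under the size factors (median log2 fold change −0.49), whereas none was called lower and 3 were called higher under total-read scaling, beside 33.0% of all tested genes lower under the size factors and 11.1% lower and 66.7% higher under total-read scaling.

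Markers of other cells than hepatocytes moved along with the genotype in these libraries. Macrophage markers summed to 7096 to 8514 normalized counts in WT livers, against 22183 to 25960 in Vps15LKO livers, with 7 of 8 called higher. Neutrophil markers summed to 67.5 to 79.6 and to 369 to 449.7, with 3 of 3 tested called higher and Ly6g at 0 in all WT livers. Of these 3 only Csf3r would have passed the filter on the WT livers alone, so a difference was built into the test of S100a8 and S100a9. Cholangiocyte markers summed to 709 to 836 and to 11696 to 22813 (7 of 7 higher). Spp1 alone held 493 to 599 and 10402 to 20496 of these sums. Krt7, Epcam and Cftr would not have passed the filter on the WT livers alone. Stellate cell and fibroblast markers summed to 5809 to 6016 and to 26590.3 to 32303 (8 of 8 higher). Endothelial markers summed to 6309 to 6853 and to 4941 to 6517, with 3 called higher and 4 lower. The part of these cells in the differences given above was not tested.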

How the data were processed

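Total liver RNA was sequenced from 3 WT and 3 Vps15LKO mice, whose group and replicate number come from the sample labels and with age and ZT taken from the methods. SOAPnuke, HISAT2 (to GRCm38) and featureCounts were used by the authors for read filtering, mapping and counting per gene, and DESeq2 for size factors. The library kit keeps strand, but the strand setting and the tool versions were not given in the sources used here. The deposited values are therefore a signal, the read count over 1 size factor per library, and all values above 0 (100% in each library, tolerance 0.01) were whole multiples of 1 read.

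Symbols, exon lengths and coordinates came from GENCODE M21 (GRCm38), which matched 55141 of 56305 genes. log2(normalized count + 1) was fitted with limma 3.58.1 (trend) in R 4.3.3 for the 15430 genes that reached 20 normalized counts in 3 or more livers, with Benjamini-Hochberg adjustment over all of them. Calls required both an adjusted p under 0.05 and a difference of 1.2-fold or more. The fold changes understate changes of genes with low counts. Ratios were tested with exact permutation tests (SciPy 1.17.1). Levels per kilobase used the summed exons of each gene, of which 28 of the 75 share bases with another gene. The fit was tested on simulated data, and the outcome is not reported here. A gene that was not called is not thereby shown to be unchanged. edgeR 4.0.16 and DESeq2 1.42.0 on the recovered reads were alternatives, as were other scalings, filters, pseudocounts, thresholds and each liver left out.

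The members follow from their symbols alone, but the symbol rule, the pairs and the pathway and marker lists were chosen with earlier results of these data known. Genes named by rule were Pik3r4, the gene outside the filter, the 8 largest rises and 8 largest falls among called members, pairs whose ratio differed by at least 1 without overlap, the retromer, HOPS and ESCRT-III cores and Vps4a and Vps4b, and pathway genes with a log2 fold change of at least 1. Other members are named to complete their role group, and their values had been seen. Correlations between the deviations of livers with the same replicate number were −0.0099, −0.011 and 0.049, so the numbers were not used as pairs. No library was a copy of another, since the chi-square per gene between replicates was 14.6 to 40.8.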

Additional observations from a re-analysis of the deposited data

How the results depend on the processing

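Against 46 genes called, 22 lower and 24 higher with a median log2 fold change of 0.04, TMM scaling gave a median of 0.090, quantile normalization 0.079, upper-quartile scaling 0.17 with 11 lower, and total-read scaling 0.77 with 1 lower and 63 higher. A fold of at least 1.5 left 19 called, 5 lower and 14 higher. Leaving out each liver in turn gave 34 to 41 called and a median of 0.019 to 0.064, the lowest without WT replicate 3. On the recovered reads edgeR called 46 and DESeq2 45. With the replicate number as a block (not a pairing, and not every liver correlated best with its own number), 41 genes were called, 18 lower and 23 higher. Under total-read scaling 30 of the 33 members with a negative log2 fold change became positive, and among the genes named by rule these were Vps9d1 (0.050), Vps13b (0.095), Vps13a (0.15), Vps13d (0.19), Snx19 (0.22), Chmp2a (0.45), Snx21 (0.41), Vps33a (0.45), Vps4a (0.58), Vps4b (0.51), and Vps26a (0.71). Pik3r4, no member, also became positive (0.19). Values near 0 of the genes named by rule also changed sign elsewhere. These were Vps26a under TMM (0.032), upper-quartile (0.11) and quantile (0.18) normalization and Vps4b under quantile normalization (0.021). With 1 liver left out the sign changed for 8 members, Vps26a (−0.065 to 0.025), Vps35 (−0.017 to 0.072), Vps16 (−0.0053 to 0.10), Chmp3 (−0.088 to 0.078), Snx3 (−0.089 to 0.019), Vps39 (−0.0064 to 0.044), Vps36 (−0.0036 to 0.10) and Vps45 (−0.012 to 0.14). Total-read and size-factor scaling differ by construction in the value they give to 1 read. The cause of the other differences was not tested. Genes of few reads, such as Vps37d (2 to 8 reads in WT livers) and Snx31, are limited by depth.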

Other observations

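Long and short members differed in median. The 7 tested members with at least 10 kb of exons, the 4 Vps13 genes among them, had a median log2 fold change of −0.53 under the size factors, with 4 called lower and 2 higher, while the 1276 tested genes of that length had a median of 0.035 (28.8% lower, 35.8% higher). The 22 members with 5 to 10 kb had a median of −0.26 (10 lower, 5 higher) and the 45 shorter ones a median of 0.14 (8 lower, 17 higher), against 0.016 (31.1% lower, 35.3% higher) and −0.051 (34.5% lower, 32.3% higher) for all tested genes of those lengths.

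The mean log2 level of the dimer subunits Snx1, Snx2, Snx5 and Snx6 relative to the retromer trimer Vps26a, Vps29 and Vps35, a measure built after these genes' values were seen and given as a description only, was −0.89 ± 0.026 (SD, n = 3) in WT and −0.27 ± 0.086 in Vps15LKO livers.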
